A study of Mus musculus with 2 samples.

Results

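The genes described here were the 67 of 32285 annotated features whose symbol begins with Hist1h, Hist2h, Hist3h or Hist4, that is, the histone genes that lie in clusters. They comprised 6 linker histone H1, 18 H2A, 18 H2B, 12 H3 and 13 H4 genes. In the GENCODE M21 annotation, which is drawn on the GRCm38 build and held all 67 identifiers under the same symbols, 54 of them (Hist1) lay on chromosome 13, 10 (Hist2) on chromosome 3, 2 (Hist3) on chromosome 11 and 1 (Hist4h4) on chromosome 6. They were followed in single-cell libraries of muscle stem cells, or satellite cells (SCs), sorted from the tibialis anterior muscle of 8 weeks old mice of the genotype Pax7 CreERT2/+ ;Rosa26 mTmG/+. The Cre recombinase of these mice is driven from the Pax7 gene, and both libraries carry the same alleles and were made from cells sorted by fluorescence. The QSC library held cells of uninjured muscle (quiescent SCs) and the ASC library held cells taken 1.5 days after injury by cardiotoxin (activated SCs). There was 1 library per group, so no comparison below has a replicate check and no p-value is given.

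Most histones of the chromatin fibre are needed in bulk only while DNA is copied, and the clustered genes supply them. Their messages are the exception among metazoan mRNAs in that they usually end in a short stem-loop, bound by the stem-loop binding protein Slbp, in place of a poly(A) tail, and they are degraded once S phase ends. Some clustered genes also make polyadenylated transcripts, which extend past the stem-loop and are known from cells that have left the cell cycle. The 10x Genomics 3′ chemistry primes on poly(A), so a conventional histone message without a tail is poorly captured or not captured at all.

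The stem-loop was searched in each annotated transcript as the pattern GGNNNTTTTNANNNCC with arms that pair, on the transcript strand only. For 13 of the 67 genes at most 3 bases past the coding sequence were annotated, so no stem-loop could be found there. The pattern was found after the coding sequence of 43 of the 67 genes (64.2%). This compares with 11 of 21834 other protein-coding genes (0.0504%) when the whole longest transcript was searched. The form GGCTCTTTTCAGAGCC accounted for 25 of them and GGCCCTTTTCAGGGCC for 7. The windows below are those of the stem-loop-bearing genes with the most counted molecules, followed by an H2A and an H1 gene that had none, and are shown because the capitals mark the stem-loop that normally ends the message. They were read from the GENCODE M21 transcripts and are written 5′ to 3′ on the coding strand, with coordinates on GRCm38.
Hist1h2ap, chr13:21833026-21833049, minus strand: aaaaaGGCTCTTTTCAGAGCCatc
Hist1h1c, chr13:23739507-23739532, plus strand: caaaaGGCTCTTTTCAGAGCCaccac
Hist1h4i, chr13:22040961-22040986, minus strand: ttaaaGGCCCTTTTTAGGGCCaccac
Hist1h4h, chr13:23531453-23531478, plus strand: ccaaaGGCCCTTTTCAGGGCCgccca
Hist3h2a, chr11:58955167-58955192, plus strand: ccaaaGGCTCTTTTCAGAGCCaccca
Hist2h2aa1, chr3:96246027-96246052, plus strand: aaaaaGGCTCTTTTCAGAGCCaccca
Hist2h2aa2, chr3:96239779-96239804, minus strand: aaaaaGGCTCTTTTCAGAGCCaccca
Hist1h1t, chr13:23696520-23696545, plus strand: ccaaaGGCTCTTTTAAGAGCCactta

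The annotation did not stop at the stem-loop for many of the genes. Of the 20 genes with at least 20 unique molecular identifiers (UMIs, each standing for 1 captured molecule) over both libraries, 14 had an annotated end more than 100 bases past the stem-loop or a polyadenylation hexamer (AATAAA or ATTAAA) within 40 bases of the end. The same held for 12 of the 42 genes with 1 to 19 UMIs and for 1 of the 5 genes with none. Such a hexamer ended 23.9% of the 67 genes and 70.1% of the other protein-coding genes. Of the genes with at least 20, 1 to 19 and no UMIs, 1, 10 and 2 had at most 3 bases annotated past the coding sequence. No longer end could be seen for these. The annotated Hist1h1c message, of a linker histone H1, ran 840 bases past its stem-loop, that of Hist1h4i, an H4 gene, ran 330 bases past it, and that of Hist3h2a, an H2A gene, ran 1643 bases past it. Hist1h2bc, an H2B gene, was annotated as a transcript of 2 exons without the stem-loop. Among the 43 genes with the stem-loop, the 22 that ended more than 100 bases past it had a median of 22.5 UMIs (range 0 to 1194) and the 21 that ended within 100 bases of it a median of 8 UMIs (range 0 to 2497). The largest value of all, that of Hist1h2ap, belonged to a transcript that stopped 3 bases after the stem-loop.

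**Figure D1:**
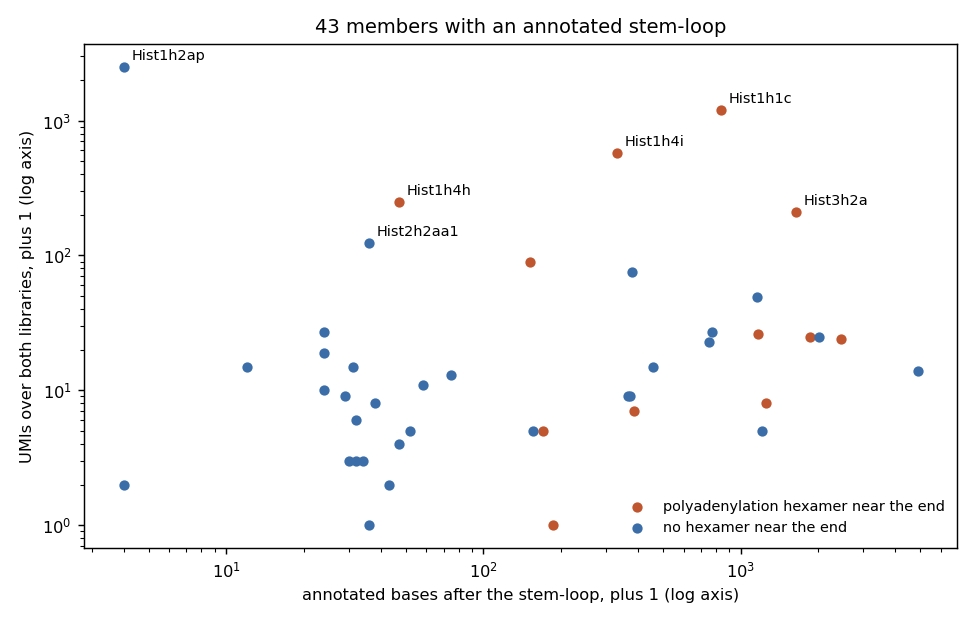
UMIs over both libraries (plus 1, log axis) against the annotated bases after the stem-loop (plus 1, log axis) for the 43 genes with a stem-loop; each point is 1 gene and the colour gives whether a polyadenylation hexamer lies near the annotated end. Hist1h2ap, which ends 3 bases after its stem-loop, stands at the upper left with 2497 UMIs, and Hist1h1c and Hist1h4i, annotated far past theirs, come next with 1194 and 576.

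Hist1h2ap also differed in its sequence before the stem-loop. A run of 12 A bases stood directly before the stem-loop of Hist1h2ap and of its near-identical neighbour Hist1h2ao, and a run of 15 stood after the coding sequence of Hist1h2ac. These were the only 3 genes of the 67 with a run of 12 or more anywhere in the annotated transcript (4.48%), against 8.51% of the other protein-coding genes. An oligo-dT primer can in principle anneal to such a run, but where priming took place was not tested here. Of the 433 windows of 50 bases in the Hist1h2ap transcript, only 30 were its own, all of them starting within its first 30 bases, and 93.1% of the windows were shared with Hist1h2ao. Hist1h2ao had 2 UMIs. How the molecules were divided between Hist1h2ap and Hist1h2ao is therefore uncertain, and values given for Hist1h2ap may hold molecules of other H2A genes. Hist2h2aa1 shared 89.2% of its windows with Hist2h2aa2, which had no UMI, and Hist2h3c1 had no window of its own, so these are uncertain likewise. Of the windows of Hist1h2af, Hist1h2ag and Hist1h2ae, 20.3%, 21.1% and 56.8% were their own. Hist1h2ag shared 71.8% of its windows with Hist1h2ap. The low counts of these H2A genes are therefore uncertain as well. Of the 20 genes with at least 20 UMIs, 6 overlapped another gene on the same strand and are uncertain for that reason too, namely Hist3h2a (Trim17), Hist2h2aa1 and Hist2h3c1 (Gm20634), Hist1h2ac (Gm24991), and Hist1h1e and Hist1h2be (each other and Gm11398).

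Barcodes were kept with at least 500 genes and at most 10% of UMIs from mitochondrial genes, which left 516 of 766 QSC barcodes with 1162091 UMIs and 1468 of 1650 ASC barcodes with 8895815 UMIs. The median barcode held 2155 and 3502 UMIs. Folds against a gene without a UMI were bounded at 3 UMIs, which is 2.58 in the QSC and 0.337 in the ASC library per 1000000 UMIs. The exact 95% interval of a count of 0, drawn in the plots, reaches slightly higher, to 3.17 and 0.415. Folds given as at least a value use the bound at 3 UMIs. They are not lower limits of an exact ratio interval, which can lie lower. Levels below are UMIs per 1000000 UMIs of the barcodes compared (CPM). In 3′ counting each molecule counts once whatever the transcript's length, so levels of different genes are set side by side without division by length. Brackets give exact 95% intervals, which cover counting error only. The satellite cell markers behaved unequally, Pax7 standing at 160 CPM in the QSC and 18.4 in the ASC library and Myog, a differentiation factor, at 25.0 and 612.5. Only 4 barcode sequences occurred in both libraries, 2 of them among the kept barcodes of both.

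At least 1 UMI was found for 22 of the 67 genes among QSC barcodes and for 62 among ASC barcodes, and every gene seen in the QSC library was also seen in the ASC library. The 5 genes without a UMI were the testis-type genes Hist1h1t, Hist1h2aa and Hist1h2ba, together with Hist1h2ah and Hist2h2aa2. The ASC library was far deeper. Reduced to the UMI total of the QSC library, it was calculated to retain 41 detected genes, and with each barcode thinned to 1200 UMIs the counts were 16 genes in 488 QSC barcodes and 38 in 1371 ASC barcodes. The share of all features detected in each library is not given here. These counts therefore cannot show a difference particular to the histone genes. All 12 H3 and all 13 H4 genes were detected in the ASC library, as were 5 of 6 H1, 15 of 18 H2A and 17 of 18 H2B genes.

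The UMIs were concentrated in few genes. The 4 genes with the most UMIs, Hist1h2ap, Hist1h2bc, Hist1h1c and Hist1h4i, supplied 62.4% of the histone UMIs in the QSC and 84.2% in the ASC library, while the 47 genes under 20 UMIs together supplied 1.99% and 3.47%. By class, H2B was the largest in the QSC library with 42.5% of the histone UMIs and H2A in the ASC library with 39.7%, and H3 the smallest in both with 2.56% and 2.29%. A chromatin fibre contains the 4 core histones in equal numbers, so the captured molecules were not spread over the classes in that proportion.

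Summed over the 67 genes, the level was 302 (271 to 335) CPM in the QSC and 845 (826 to 864) in the ASC library, a log2 ratio of 1.48 (1.33 to 1.64). Without Hist1h2ap the ratio was 0.91 (0.75 to 1.07). Within 1% mitochondrial UMIs, the limit used by the study, 86 QSC and 948 ASC barcodes remained and the log2 ratio of the sum was 0.32 (0.08 to 0.57). This limit also changed the mix of ASC barcodes, as described in the closing section. By at least 2-fold, 9 of the 20 genes with 20 or more UMIs were higher in the ASC library and 2 were lower, where 16.0% and 23.0% of the 11189 genes with as many UMIs were. Of the 9, Hist2h3c1, Hist1h2ac and Hist1h2be had 1 UMI each in the QSC library and ratio intervals that include 0. Only Hist1h1c, with 59 UMIs, reached 20 UMIs in the QSC library alone. The others of the 9 passed that limit with the help of the ASC library, where they were higher. Within 1% mitochondrial UMIs these counts were 2 higher and 1 lower, among the genes that still had 20 UMIs there. How many genes that was, and the share of all genes at this limit, were not counted. The median log2 ratio of the 20 genes was 0.96 and that of all 11189 genes -0.10.

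Among the linker histones, which bind the DNA between nucleosomes, Hist1h1c had 59 UMIs in the QSC and 1135 in the ASC library, or 50.8 and 128 CPM, a log2 ratio of 1.33 (0.95 to 1.73), which was 0.68 (0.13 to 1.29) within 1% mitochondrial UMIs. Hist1h1e had 3 and 45 UMIs, a log2 ratio of 0.97 (-0.67 to 3.30), which does not separate the libraries. Hist1h1b, also an H1 gene, had none among QSC barcodes and 47 UMIs among ASC barcodes, at least 2.05-fold higher by the bound at 3 UMIs. The lower limit of its exact log2 ratio interval was 0.68, which is under 2-fold.

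The H2A genes differed in direction. Hist1h2ap had 1 UMI, in 1 of 516 QSC barcodes, against 2496 UMIs in 118 of 1468 ASC barcodes, for a log2 ratio of 8.35 (5.87 to 13.65). Hist1h2ae had none and 88 UMIs, at least 3.83-fold higher in the ASC library, and Hist1h2af and Hist1h2ag had none against 29 and 26 UMIs. Hist2h2aa1 went the other way, with 43 and 79 UMIs, or 37.0 and 8.88 CPM, a log2 ratio of -2.06 (-2.61 to -1.49), which was -3.12 (-3.85 to -2.36) within 1% mitochondrial UMIs and -1.46 (-2.31 to -0.52) with at least 1000 genes. Hist3h2a was at 25.0 and 20.2 CPM, and its log2 ratio of -0.30 (-0.87 to 0.32) did not separate the libraries.

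Of the H2B genes, Hist1h2bc was the most abundant of the 67 clustered genes in the QSC library. It had 144 UMIs there and 2130 in the ASC library, or 124 (105 to 146) and 239 (229 to 250) CPM, a log2 ratio of 0.95 (0.71 to 1.20). Within 1% mitochondrial UMIs the ratio was 0.30 (-0.07 to 0.70), which does not separate the libraries. Its UMIs were spread over 106 QSC and 912 ASC barcodes, with at most 4 and 22 in any one barcode.

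Of the H3 genes, Hist2h3c2 had 2 and 72 UMIs, a log2 ratio of 2.23 (0.33 to 5.31), and Hist2h3c1 and Hist1h3d, with 1 and 24 and with 3 and 19 UMIs, did not separate the libraries. The same was true of Hist1h2ac and Hist1h2be, with 1 and 23 UMIs each, and of Hist2h2be, with 3 and 19. Of the H4 genes, Hist1h4i had 15 and 561 UMIs, or 12.9 and 63.1 CPM, a log2 ratio of 2.29 (1.55 to 3.14), which was 0.58 (-0.24 to 1.55) within 1% mitochondrial UMIs and then did not separate the libraries. Hist1h4h had 32 and 214 UMIs, a log2 ratio of -0.19 (-0.74 to 0.39), and Hist1h4d had none and 26 UMIs. With TMM scaling, which adds 0.31 to each log2 ratio, the negative ratios of Hist1h4h, Hist3h2a, Hist1h3d and Hist2h2be turned positive. Hist4h4 had 7 and 16 UMIs, or 6.02 and 1.80 CPM, a log2 ratio of -1.74 (-3.11 to -0.22). That interval includes 0 with at most 5% mitochondrial UMIs (-3.27 to 0.05), in the remaining barcodes (-2.70 to 0.68), with at least 1000 genes (-3.06 to 2.25), without the deepest 5% of barcodes (-2.80 to 0.08) and after TMM scaling, so the difference was not stable.

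**Figure D2:**
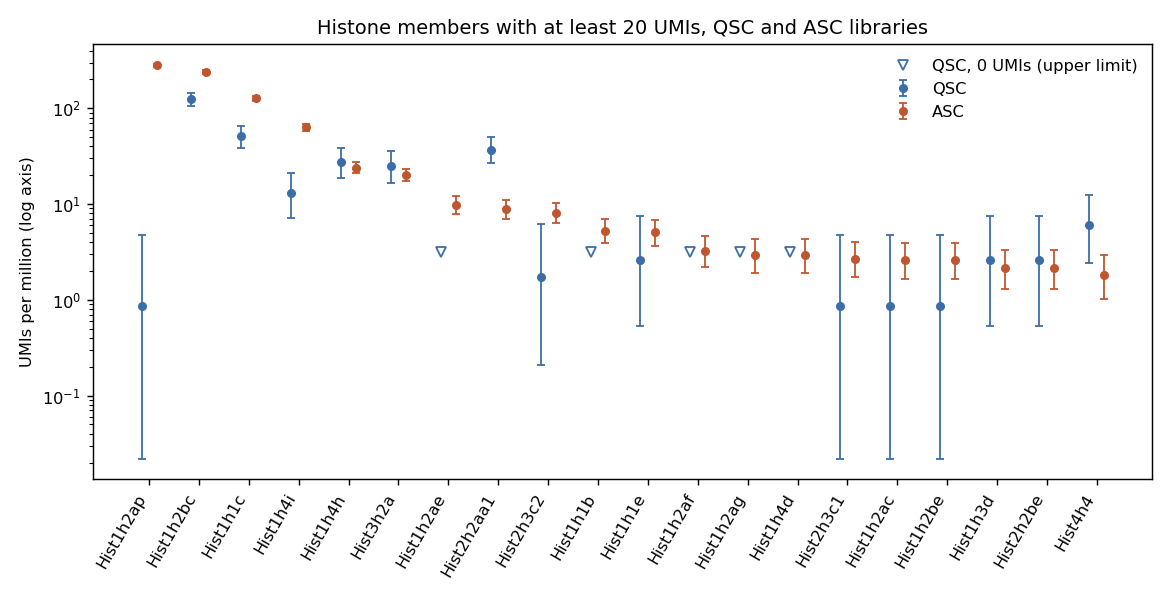
Level (CPM, log axis) of the 20 histone genes with at least 20 UMIs in the QSC (blue) and ASC (orange) libraries, 1 library each; bars are exact 95% Poisson intervals and open triangles upper limits for 0 UMIs. Hist1h2ap goes from 0.861 to 281, Hist1h2bc from 124 to 239, and Hist2h2aa1 lies lower in the ASC library.

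The libraries held more than satellite cells, and the histone genes were not equally distributed over what they held. Barcodes with at least 5% of UMIs from 10 muscle fibre genes (such as Acta1 and Ckm) were called fibre-marked. They numbered 104 in the QSC and 939 in the ASC library, with 0 and 29 barcodes lying between 4% and 6%. In the ASC library, 93 further barcodes carried at least 1% of UMIs from 12 immune genes and 436 remained, and in the QSC library 16 were immune-marked, 15 stromal or endothelial and 381 remained. Pax7 stood at 212 CPM in the remaining QSC barcodes and at 9.33 in the fibre-marked ones, and at 29.5 and 2.00 in the ASC library. A list of 10 satellite cell genes that includes Pax7 did not separate the kinds in this way. It supplied 0.269% of UMIs in the remaining and 0.267% in the fibre-marked QSC barcodes, and 0.321% and 0.495% in the ASC library. These are ranges of a score, not cell types, and doublets were not removed.

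In the QSC library the summed histone level was 862.5 (743 to 996) CPM in the fibre-marked and 170 (144 to 200) in the remaining barcodes, a log2 ratio of 2.34 (2.02 to 2.66). Hist1h2bc was at 345 and 73.0 CPM, Hist1h1c at 159 and 24.3, and Hist2h2aa1 at 135 and 15.1. Of 5 genes with enough UMIs, 4 were at least 2-fold higher in the fibre-marked barcodes and none was lower, against 18.7% and 47.2% of 5397 genes. All 14 UMIs of Hist1h4i in these barcodes lay in the fibre-marked ones, at least 18.8-fold higher.

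In the ASC library the sums were closer, 1031 (995 to 1068) against 794 (770 to 818) CPM, but they were made of different genes. Without Hist1h2ap they were 1027 and 336, a log2 ratio of 1.61 (1.53 to 1.70). Of 17 genes with enough UMIs, 9 were at least 2-fold higher in the fibre-marked barcodes and 7 at least 2-fold lower, against 15.3% and 45.3% of 10296 genes. The higher ones were Hist1h2bc (476 and 123 CPM), Hist1h1c (282 and 48.6), Hist1h4i (107 and 40.8), Hist1h4h (60.9 and 5.24), Hist2h3c2 (20.3 and 1.50), Hist3h2a, Hist2h2aa1, Hist2h3c1 and Hist1h2be. The annotated transcripts of 7 of these 9 genes ended more than 100 bases past the stem-loop or near a hexamer, the exceptions being Hist1h2bc, whose transcript lacks the stem-loop, and Hist2h2aa1. The same was true of 3 of the 7 lower genes, Hist1h2ae, Hist1h1e and Hist1h4d. Of the 9 higher genes, Hist2h3c2, Hist2h3c1 and Hist1h2be had 8, 9 and 6 UMIs in the remaining barcodes. They passed the limit of 20 UMIs with the help of the fibre-marked ones.

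The lower ones were Hist1h2ap (3.66 and 458 CPM, 125-fold), Hist1h2ae (1.33 and 15.5), Hist1h1b (0.333 and 8.41), Hist1h1e, Hist1h2af, Hist1h2ag and Hist1h4d. Hist1h1e had no UMI in 939 fibre-marked barcodes and 42 in the remaining barcodes, at least 7.87-fold. The fibre-marked barcodes carried 0.0304% of their UMIs from 41 S-phase genes and the remaining barcodes 0.203%. Free RNA of broken fibres can reach any droplet. Hist1h2bc stood at 3.50 UMIs per 1000 fibre-gene UMIs in the fibre-marked barcodes, at 3.32 in the immune-marked and at 6.98 in the remaining ones, and Hist1h1c at 2.07, 2.19 and 2.76. The immune-marked values lay near the fibre-marked ones for these genes. They lay higher for Hist1h4i, at 0.787 in the fibre-marked and 1.70 in the immune-marked barcodes, for Hist3h2a, at 0.240 and 0.568, and for Hist2h2aa1, at 0.122 and 0.324 (21, 7 and 4 immune-marked UMIs). Hist2h3c2 was also higher, at 0.149 and 0.243, and Hist1h4h lower, at 0.447 and 0.243, each from 3 immune-marked UMIs. Hist2h3c1 and Hist1h2be had no immune-marked UMI. In the QSC library Hist1h2bc was at 2.06 in the fibre-marked and 4.75 in the immune-marked barcodes, the latter from 3 UMIs. The part of free RNA in these levels was not tested further.

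Compared between the libraries within each kind of barcode, the fibre-marked barcodes differed little in sum, at a log2 ratio of 0.26 (0.04 to 0.48) ASC over QSC, and the remaining barcodes differed by 2.22 (1.98 to 2.47), or 0.99 (0.74 to 1.24) without Hist1h2ap. Hist1h2bc had ratios of 0.46 (0.13 to 0.82) and 0.75 (0.38 to 1.15) in the fibre-marked and remaining barcodes, against 0.95 over all barcodes. Hist1h4h, which did not separate the libraries over all barcodes, was at 15.1 and 5.24 CPM in the remaining barcodes of the QSC and ASC libraries, a log2 ratio of -1.52 (-2.52 to -0.45). Hist2h2aa1 was lower in the ASC library in both kinds, at -3.02 (-3.71 to -2.31) and -1.69 (-2.71 to -0.60).

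**Figure D3:**
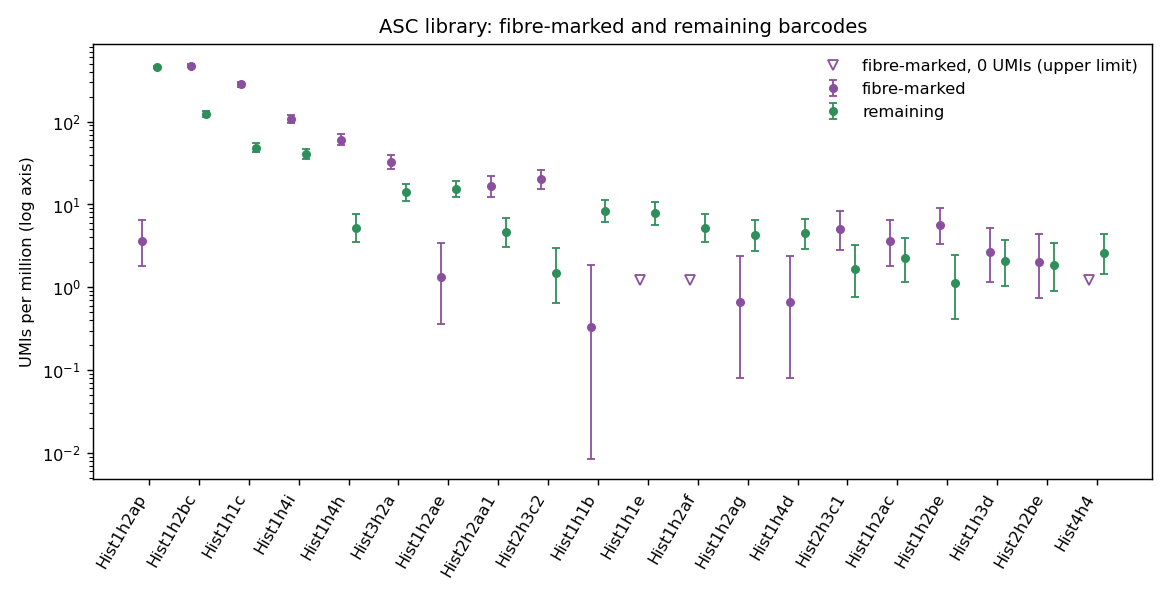
Level (CPM, log axis) of the same 20 genes in the fibre-marked (purple) and remaining (green) barcodes of the ASC library; bars are exact 95% Poisson intervals and open triangles upper limits for 0 UMIs. Hist1h2bc, Hist1h1c and Hist1h4h lie higher in fibre-marked barcodes, and Hist1h2ap (3.66 against 458), Hist1h2ae and Hist1h1b lie higher in the remaining ones.

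The link to S phase was examined in the ASC barcodes that were not fibre-marked. Of these, 449 had at least 3000 UMIs and 80 were left out. Each was thinned to 3000 UMIs and placed by its UMIs of 41 S-phase genes, a list of replication genes without any histone gene, into bins of 0 (116 barcodes), 1 to 2 (165), 3 to 5 (60) and 6 or more (108). Levels were then taken from the full counts. The bins differed in depth, with medians of 6245.5, 6624, 10117 and 24554.5 UMIs, but little in fibre-gene UMIs, at 1.99% in the first and 1.78% in the last. For 46 barcodes the count lay near the limit of the last bin.

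Hist1h2ap stood at 9.11 (3.93 to 17.9), 16.8 (10.7 to 25.2), 122 (99.3 to 148) and 892.5 (857 to 929) CPM over the 4 bins. The last bin exceeded the first by a log2 ratio of 6.62 (5.63 to 7.83). It held 2351 of the 2496 ASC UMIs of this gene. Among barcodes of 3000 to 15000 UMIs only, of which 26 fell in the last bin and 109 in the first, the ratio was 7.57 (6.33 to 9.20). With barcodes thinned to 1200 UMIs and a last bin of 3 or more S-phase UMIs it was 3.49 (3.23 to 3.76).

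Hist1h2bc and Hist1h1c showed no such rise. Hist1h2bc was at 121, 145, 120 and 99.1 CPM over the bins, a log2 ratio of -0.28 (-0.62 to 0.06). In the remaining barcodes alone, without the immune-marked ones, it was at 146 in the first and 98.9 in the last bin. That ratio was -0.57 (-0.91 to -0.21), so it was lower in the last bin there. Hist1h1c was at 49.0, 67.2, 24.8 and 45.6, a ratio of -0.10 (-0.62 to 0.43). Hist1h4i was higher in the last bin, at 20.5, 17.5, 41.3 and 57.3, a ratio of 1.48 (0.77 to 2.28). Hist3h2a was lower in the last bin, at 21.6 CPM in the first and 9.87 in the last, a ratio of -1.13 (-2.04 to -0.20).

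Several scarce genes stood at a higher level in the last bin than in the first. Raw counts also reflect that the barcodes of the last bin were the deepest. Hist1h2ae had 2, 7, 5 and 70 UMIs over the bins, a log2 ratio of 3.55 (1.64 to 6.62), and the linker histone Hist1h1b had 1, 4, 1 and 40, a ratio of 3.74 (1.18 to 9.08). All 28 UMIs of Hist1h2af in these barcodes lay in the last bin, at least 3.11-fold higher than in the first. Hist1h4d had 0, 3, 2 and 19 UMIs, at least 2.11-fold higher in the last bin than in the first. Hist1h1e had 3, 7, 2 and 33, a log2 ratio of 1.88 (0.20 to 4.22). The 47 genes under 20 UMIs summed to 11 UMIs in the first bin and 183 in the last, or 12.5 and 69.5 CPM, a log2 ratio of 2.47 (1.60 to 3.50). In the last bin 61 of the 67 genes were detected and in the far shallower first bin 27, without a share of all features to set beside them. Of 10 genes with enough UMIs, 6 were at least 2-fold higher in the last bin than in the first and 1 was at least 2-fold lower, against 18.2% and 16.4% of 8540 genes. None of the 6 reached 20 UMIs in the first bin alone, so each passed that limit with the help of the last bin.

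Summed over all 67 genes the level was 266, 315, 390 and 1273 CPM over the bins, a log2 ratio of 2.26 (2.07 to 2.45). Without Hist1h2ap the ratio was 0.57 (0.36 to 0.78). Within 1% mitochondrial UMIs, where the last bin held 8 barcodes and the first 11, the ratio of the sum was 1.60 (1.12 to 2.11). In the fibre-marked ASC barcodes, of which 395 had 3000 UMIs, the sum was 902 (839 to 969) CPM in the 173 barcodes without S-phase UMIs, 1012 (951 to 1076) in the 194 with 1 to 2 and 1339 (1144 to 1558) in the 27 with 3 to 5. Hist1h2bc was at 435 (392 to 482), 432 (392 to 474) and 606 (477 to 758) CPM and Hist1h1c at 224 (193 to 259), 297 (264 to 332) and 351 (255 to 471) in these bins, and Hist1h2ap had 3, 2 and 2 UMIs. Only 1 fibre-marked barcode had 6 or more. In the QSC library only 57 barcodes that were not fibre-marked reached 3000 UMIs, 1 of them with 6 or more S-phase UMIs, so no such series could be drawn for it, and none of the 57 had a Hist1h2ap UMI.

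**Figure D4:**
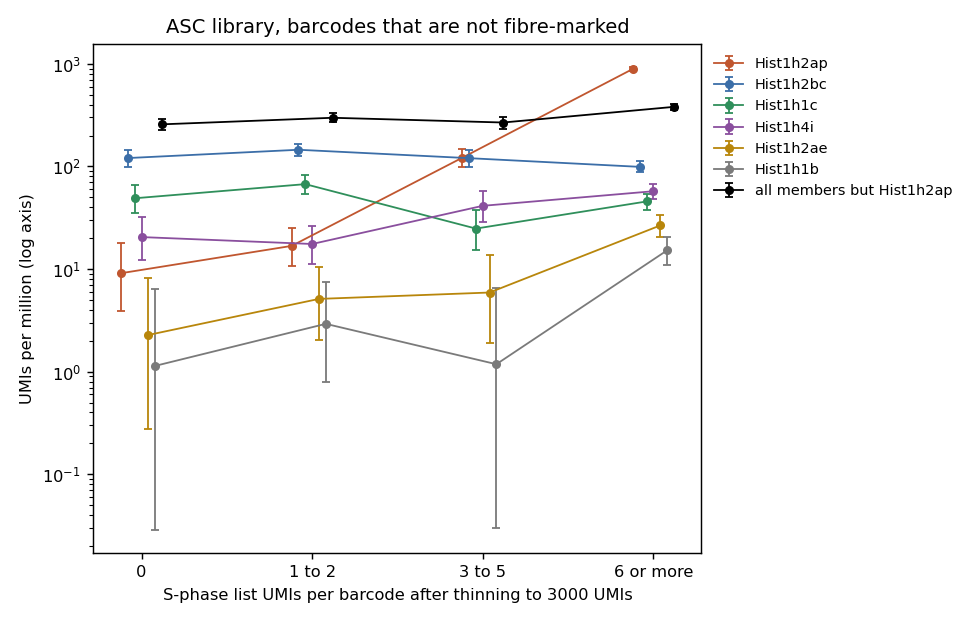
Level (CPM, log axis) of 6 histone genes and of all members but Hist1h2ap against the S-phase list UMIs per barcode after thinning to 3000 UMIs, in the 449 ASC barcodes that are not fibre-marked; bars are exact 95% Poisson intervals. Hist1h2ap climbs from 9.11 to 892.5, Hist1h2ae and Hist1h1b are highest in the last bin, and Hist1h2bc and Hist1h1c do not differ between the first and last bins beyond their intervals.

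Hist1h2ap was concentrated in few barcodes. In the ASC library 12 barcodes held 50% of its UMIs, with 162 in one of them, while 50% of the Hist1h2bc UMIs took 219 barcodes. The 37 barcodes with at least 10 Hist1h2ap UMIs held 92.1% of all its UMIs. Of these 37, 35 lay in the last S-phase bin and none in the first, 36 were among the remaining barcodes, 1 was immune-marked and none was fibre-marked.

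Not every barcode of the last S-phase bin contained it. Of the 108, 39 had no Hist1h2ap UMI, 34 had 1 to 9 and 35 had 10 or more. These 3 groups are defined by Hist1h2ap, so its own level in them is given by the division. Their median depths were 20806, 27880 and 28408 UMIs. The 39 Hist1h1b UMIs found in the last group compared with none and 1 in the others, and Hist1h2af had 28 against none in either. Hist1h2ae had 58 UMIs against 6 and 6, Hist1h1e 26 against 2 and 5, and Hist1h4d 17 against 1 and 1. Hist1h2af and Hist1h2ae share sequence with other H2A genes, so misassigned Hist1h2ap molecules among their UMIs cannot be told apart. For Hist1h1b, 100% of the windows were its own. Hist1h1c was at 77.1 (60.3 to 97.1) CPM in the last group and at 31.0 and 25.9 in the others. Hist1h2bc was at 111, 95.1 and 93.2 CPM in the 3 groups, with overlapping intervals. The number of histone genes detected was 29, 40 and 58, without a share of all features to set beside it.

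The whole S-phase list was at 3071 (2949 to 3197), 2920 (2811 to 3032) and 3978 (3852 to 4108) CPM in these groups, highest in the last, and the G2/M list at 2276 (2171 to 2385), 2997 (2887 to 3111) and 2976 (2866 to 3089). The replication gene Mcm5 was at 143, 106 and 135 and Pcna, the sliding clamp of replication, at 285, 237 and 356. Top2a, a topoisomerase that is high late in the cycle, was at 47.8 (33.6 to 65.8), 67.0 (51.3 to 85.9) and 254 (223 to 288), and Slbp, which binds the stem-loop, at 121 (98.1 to 149), 142 (118 to 168) and 222 (193 to 254). Mki67 was at 23.2, 40.0 and 65.3 and Ccnb2, a mitotic cyclin, at 81.3, 90.7 and 78.2. The barcodes with 10 or more Hist1h2ap UMIs thus had the highest Top2a and Slbp levels of the 3 groups, at a depth similar to that of the middle group.

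**Figure D5:**
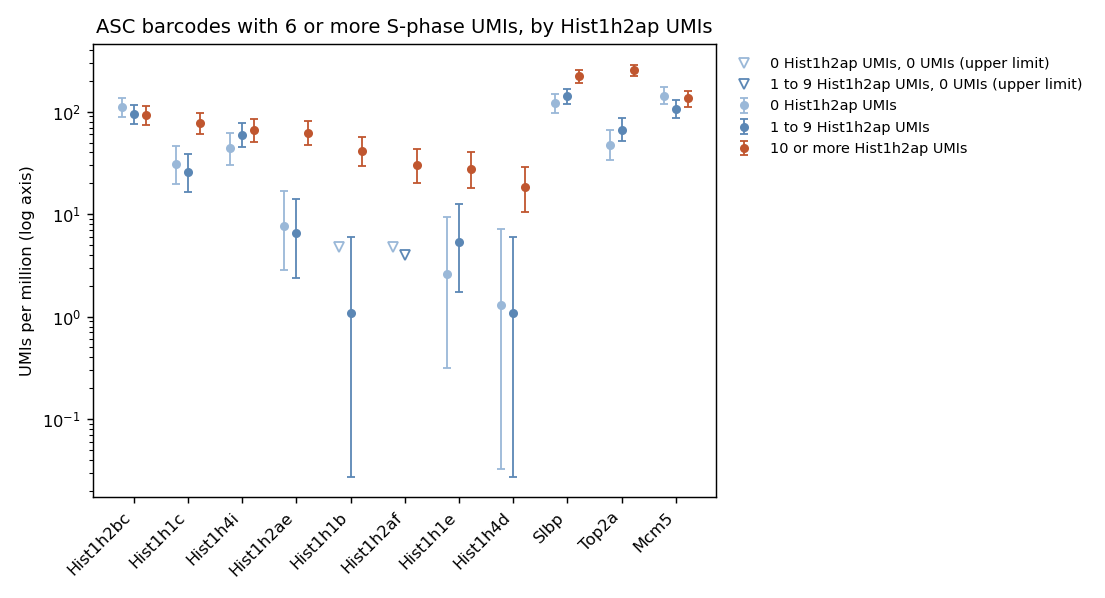
Level (CPM, log axis) of histone genes and of Slbp, Top2a and Mcm5 in the 108 ASC barcodes with 6 or more S-phase UMIs, split into 39 with no, 34 with 1 to 9 and 35 with 10 or more Hist1h2ap UMIs; bars are exact 95% Poisson intervals and open triangles upper limits for 0 UMIs. Hist1h1b, Hist1h2af, Hist1h1e and Hist1h4d are highest in the third group, and Hist1h2bc and Mcm5 are similar in all 3.

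Splitting the 449 barcodes by both phases separated S-phase from G2/M markers in part. With at least 3 UMIs of the S-phase list and at most 2 of 41 G2/M genes (52 barcodes), Hist1h2ap stood at 294 (255 to 338) CPM. With at least 3 of both (116 barcodes) it stood at 805 (772 to 839). With at least 3 G2/M and at most 2 S-phase UMIs it stood at 13.9 (2.87 to 40.6), in 19 barcodes, and with at most 2 of both at 13.8 (9.16 to 19.9), in 262. The last 2 values do not differ beyond their intervals. Hist1h2bc was at 125 (110 to 141) with few of both, 108 (96.5 to 121) with at least 3 of both, 87.8 (67.0 to 113) in the 52 barcodes and 236 (176 to 311) in the 19, the last from 51 UMIs. Over the G2/M bins it was at 110, 122, 122 and 116 CPM, a log2 ratio of 0.09 (-0.20 to 0.38).

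Over the 449 thinned barcodes, which share a library and differ in depth before thinning, the correlation of the S-phase UMIs (log of UMIs plus 1) with the summed histone UMIs was r = 0.36 (Spearman 0.26), with Hist1h2ap 0.48 (0.43) and with Hist1h2bc -0.02 (0.01), given as a description. With the G2/M UMIs the values were about as large, 0.41 (0.32) for the sum, 0.46 (0.43) for Hist1h2ap and 0.04 (0.05) for Hist1h2bc. For the sum without Hist1h2ap they were lower, 0.15 (0.14) with the S-phase and 0.22 (0.20) with the G2/M UMIs. In bins of G2/M UMIs made the same way, 6 or more (97 barcodes) exceeded 0 (181 barcodes) by a log2 ratio of 2.21 (2.05 to 2.37) for the sum. For Hist1h2ap it was 5.68 (5.09 to 6.34). Taken singly, either list thus showed the rise. Split by both lists, Hist1h2ap was at 294 CPM with many S-phase UMIs only, 13.9 with many G2/M UMIs only (19 barcodes) and 13.8 with few of both. The sum was at 522, 459 and 279 CPM in the same order. Without Hist1h2ap it was at 228 (194 to 267), 445 (360 to 543) and 265 (243 to 288). The other genes together were thus not higher with many S-phase UMIs only, and were highest in the 19 barcodes with many G2/M UMIs only. The 10 other genes most like the summed histone genes, of 5204 seen in at least 5% of these barcodes, were Top2a (r = 0.39), Tubb5 (0.35), Stmn1 (0.34), Spc24 (0.33), Pclaf (0.32), Rrm2 (0.31), Ccnb1 (0.31), Hmgb2 (0.29), H2afz (0.29) and Cdca3 (0.28). Rrm2 is on the S-phase list and Top2a, Ccnb1, Hmgb2 and Cdca3 on the G2/M list. This ranking depended on Hist1h2ap. For the sum without it the highest were Ccnb1 (r = 0.24), Nme6 (0.23), Lsm6 (0.22), Myoz2 (0.21) and Sln (0.21). Of these only Ccnb1 is on either list, and Cdca3 (0.19) and Top2a (0.19) came lower.

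The replacement histones are made outside the clusters, mostly from polyadenylated messages, and most of them serve chromatin outside S phase as well. Of 12 listed, 11 were in the files and 10 had at least 20 UMIs, of which 4 were at least 2-fold higher in the ASC library and none was at least 2-fold lower, against 16.0% and 23.0% of all genes tested. H2afz, the H2A variant of promoters, was at 291 and 1096 CPM in the QSC and ASC libraries, a log2 ratio of 1.91 (1.76 to 2.07), and Cenpa, the H3 variant of centromeres, at 2.58 and 90.2. H3f3b, a replacement H3, was at 1531 and 1001, a ratio of -0.61 (-0.69 to -0.54), and H3f3a at 391 and 655. The 11 genes summed to 2673 and 3391 CPM, well above the 302 and 845 of the 67 clustered genes.

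Of the genes that process histone messages, 15 of 17 listed were in the files and 14 had enough UMIs. Only Eri1, an exonuclease that trims histone mRNA, was at least 2-fold higher, at 9.47 and 22.4 CPM. Slbp was at 77.5 and 74.2, a log2 ratio of -0.06 (-0.38 to 0.27), and Ncbp2, a cap-binding protein, at 25.0 and 46.3. Of 20 histone chaperone genes, 7 were at least 2-fold higher and 1 was lower, where 16.0% and 23.0% of all genes tested were, a background that applies to each list here. Nap1l1, a chaperone of H2A and H2B, was at 91.2 and 341 CPM, Ssrp1 of the FACT complex at 63.7 and 131, and Chaf1b, a subunit of the assembly factor of replicating chromatin, had none among QSC barcodes and 165 UMIs among ASC barcodes. Atrx, which deposits replacement H3, was at 89.5 and 27.7. Of the S-phase list, 33 of 40 tested genes were at least 2-fold higher in the ASC library and 1 lower, and of the G2/M list 39 of 41 were higher and 1 lower.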

How the data were processed

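Gene by barcode matrices of 2 libraries (single-cell 3′ v2 chemistry, 10x Genomics) were analysed. The deposited values are whole-number UMI counts; the authors made them with Cell Ranger, version 7.1.0 per the labels and 6.0.2 per the file headers, on mm10, and did not normalise them. The matrices hold filtered barcodes, and the authors' clusters and stricter mitochondrial limit were not used for the main values. How the counting treated strand is not given in the sources used here. No column of another sample was present.

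Here, barcodes with at least 500 genes and at most 10% mitochondrial UMIs were kept, and UMIs were summed per library, kind of barcode or bin and scaled to 1000000 UMIs (CPM). Intervals are exact Poisson (levels) or exact conditional binomial (Clopper-Pearson, ratios) at 95%. They cover counting error only, since barcodes are not replicates. Folds against 0 UMIs were bounded at 3 UMIs, and a gene was called at 2-fold where both sides together had 20 UMIs. A gene could thus pass that limit through the side where it was higher. Members with at least 20 UMIs, the 10 genes most correlated with their sum and up to 4 genes of each other list, those with the highest summed CPM, were to be named, and further genes were added after values were seen. The members and all lists were chosen with earlier results of these data known. S-phase and G2/M lists leave out histone genes and Slbp, Nasp, Casp8ap2 and Chaf1b. Stem-loops and transcript ends were read from GENCODE M21. The interval and thinning code was tested on simulated data. Python 3.11.15, numpy 2.4.6, scipy 1.17.1, pandas 2.3.3, matplotlib 3.10.9, R 4.3.3 and edgeR 4.0.16 (TMM scaling only) were used. Alternatives were other limits on genes, mitochondrial UMIs and marker shares, thinning, leaving out deep barcodes and TMM scaling.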

Additional observations from a re-analysis of the deposited data

How the results depend on the processing

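No paired analysis was possible because each group had 1 library. The ASC over QSC log2 ratio of the summed genes, 1.48, was 0.32 with at most 1% and 1.25 with at most 5% mitochondrial UMIs, 1.27 with no limit on genes, 2.09 with at least 1000 genes, 2.22 in the remaining barcodes only, 1.79 with TMM scaling and 0.91 without Hist1h2ap. It was 1.48 without the barcodes that both libraries hold and 1.39 without the 5% of barcodes with the most UMIs, and no alternative turned its direction. TMM scaling moves every ratio up by 0.31, which turns the sign of Hist1h4h, Hist3h2a, Hist1h3d and Hist2h2be, none of which separated the libraries.

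The 22 genes detected in the QSC library were 12 at 1% mitochondrial UMIs. The 62 of the ASC library were 41 at 1%, 38 with barcodes thinned to 1200 UMIs and 41 as calculated at the UMI total of the QSC library. Of genes at least 2-fold higher in the ASC library, 9 of 20 became 2 at 1% mitochondrial UMIs and 5 of 13 in the remaining barcodes only. The 2 lower became 1 at 1% and 1 with at least 1000 genes. The limit of 20 UMIs was applied anew at each setting, so the genes tested differ. The share of all genes was not counted at these settings.

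The fibre-marked over remaining ratio in the ASC library, 0.38, was 0.16 with a fibre limit of 10%, and without Hist1h2ap it went from 1.61 to 1.37 at a limit of 2% and 1.16 at 10%. Over S-phase bins, the summed ratio of 2.26 was 1.79 when thinned to 1200 UMIs, 1.60 at 1% mitochondrial UMIs (8 barcodes in the last bin), 2.64 among barcodes of 3000 to 15000 UMIs and 0.57 without Hist1h2ap. That of Hist1h2ap, 6.62, was 3.49 when thinned to 1200 UMIs, where the last bin began at 3 S-phase UMIs and the first held 240 barcodes. At 1% mitochondrial UMIs no ratio was given for it, since its UMIs were 285 in the 8 barcodes of the last bin and 0 in the 11 of the first. The 1% limit also changed which barcodes were compared. It left 948 of 1468 ASC barcodes. The last and first S-phase bins, which hold no fibre-marked barcode, fell from 108 and 116 barcodes to 8 and 11. The ratios at 1% thus rest on a different mix of ASC barcodes. Whether this accounts for the shifts at 1% was not tested, nor was the cause of the other shifts. The alternatives of barcodes of 3000 to 15000 UMIs, of equal UMI totals and without shared barcodes were chosen after seeing the data. With 1 library a group no difference has a replicate check, and the depth of the QSC library limits the detection of scarce genes.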
